A study of Mus musculus with 15 samples.

Results

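The genes of the proteasome were compared between the B6 and the Spret allele in cortical organoids at day 12. The members are the autosomal genes whose symbol is Psm followed by a letter from a to g and a number, without the immunoproteasome subunits Psmb8, Psmb9 and Psmb10. The symbol pattern matched 48 genes of 44260 in the table. After those 3 and the X-linked Psmd10 were left out, 44 members remained. They are 16 genes of the core particle, 17 of the regulatory particle and 11 of the alternative activators, the inhibitor and the assembly chaperones. The 44 members lie on 15 autosomes. Of these, 43 were abundant enough to test, with a mean of at least 10 over the 6 allele columns. Psma8 was not, at 1, 4 and 1 from B6 and 1, 5 and 0 from Spret in libraries 1, 2 and 3.

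The proteasome is the protease that degrades proteins tagged with ubiquitin. Its core particle is a barrel of stacked rings, with outer alpha rings that gate the entrance and inner beta rings that hold the active sites. The regulatory particle caps the barrel, with a base of ATPases that unfold substrates and a lid that removes ubiquitin. All of these subunits are needed in fixed proportions in each complex, and dividing progenitors and neurons of the developing cortex depend on the enzyme.

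The organoids were grown from epiblast stem cells of SpretB6 lines, hybrid mouse cells with a C57Bl/6J (B6) genome copy and a Mus spretus (Spret) genome copy. No treatment, sex or age is named in the labels. The 3 libraries are titled C1 to C3 and are called libraries 1, 2 and 3 here, each with a B6 and a Spret value per gene. Nothing says that they came from separate cultures, and the spread behind each p-value may therefore be technical. The series also lists 12 samples of induced pluripotent stem cells from 4 crosses, not analysed here.

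The B6 columns summed to 2701847, 2413876 and 3027078 and the Spret columns to 2337998, 2088788 and 2639912. Spacing of the values fitted a factor of about 1.16, 1.28 and 0.66 values per read, so the members' values rest on the most reads in library 3. All 11 markers of cortical organoids had a mean of at least 10, with a summed level from 28421 to 28653. They include Emx1, Pax6, Tbr1 and Neurod6, and also Map2, Tubb3 and Dcx, which mark neurons in general. Single markers varied more than the sum, with Tbr1 at 245, 234 and 508 and Neurod6 at 4730, 4871 and 3177. All 5 mesenchyme markers also had a mean of at least 10, at 364, 351 and 338 summed. Against the label of epiblast stem cells, the 9 markers of such cells summed to 86, 117 and 33, and Pou5f1 alone of them reached a mean of 10. Choroid plexus markers differed between libraries, at 3167, 778 and 474 summed over 6 genes.

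Both alleles sit in the same cells, and the design asks which genes differ between them. Of the 43 tested members, 16 were called by limma at an adjusted p below 0.05, 7 higher from Spret and 9 higher from B6. Of these 16 calls, 14 ended when low genes were not filtered out, 14 without the library term and 11 without the trend in the fit, with no change of direction. Over all 15456 tested autosomal genes 28.4% were called, 7.78% toward Spret and 20.7% toward B6. The members are abundant, and 37 of them had a mean of at least 50. In a fit of genes of that abundance alone 37.7% of autosomal genes were called, and 13 of those 37 members were. The called share of the members is thus near the background of equally abundant genes. The 3 B6 values and the 3 Spret values did not overlap in 11 of the 43 tested members, against 23.8% of tested autosomal genes. All 11 were among the 16 called.

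Ratios are log2(Spret value + 1) minus log2(B6 value + 1), given with the standard error from limma, and understate the differences of low genes. The median ratio of the 43 members was 0.01, against -0.13 for autosomal genes. With each library's ratios centred on the autosomal median, which removes that shift of -0.13, 13 members were called toward Spret and 6 toward B6, against 13.3% and 13.5% of autosomal genes. Which allele had more called members therefore turned with the scaling, from 7 and 9 to 13 and 6. The autosomal shares shifted as well, from 7.78% and 20.7%. Ratios ranged from -1.09 for Psmg2, a chaperone of core assembly, to 0.66 for Psma2, a subunit of the alpha ring.

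**Figure D1:**
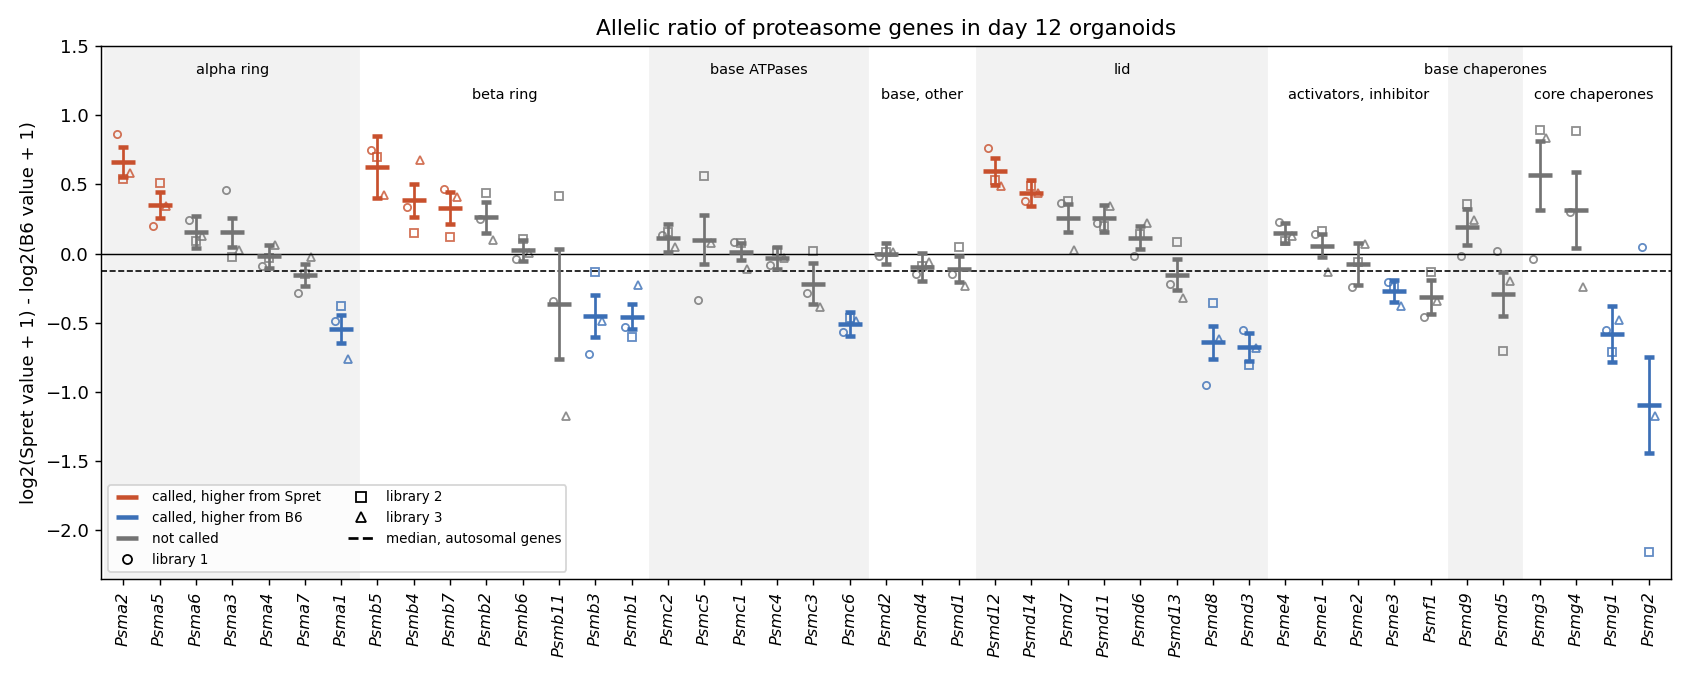
Allelic ratio of the 43 tested members on a log2 scale, by role. Horizontal marks are the mean over 3 libraries with the standard error from limma, open symbols are single libraries, colour shows the 7 members called toward Spret and the 9 called toward B6, and the dashed line is the autosomal median of -0.13. Both directions occur within the alpha ring, the beta ring and the lid.

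Summed over their genes, both particles were read nearly equally from the alleles. The core particle summed to 3154, 2572 and 3018 from B6 and to 3193, 2613 and 3127 from Spret in libraries 1, 2 and 3. Its Spret share was 50.3%, 50.4% and 50.9%, a mean of 50.5% ± 0.312 (SD, n = 3). The regulatory particle summed to 4482, 3513 and 4091 from B6 and to 4395, 3649 and 3911 from Spret, with a Spret share of 49.5%, 50.9% and 48.9% and a mean of 49.8% ± 1.06. The core share was the higher of the pair in libraries 1 and 3 and the lower in library 2. For the 11 activators, inhibitor and chaperones the share was 49.9%, 49.2% and 47.9%. All autosomal genes stood at 47.7%, 47.7% and 47.9%, so the core and the regulatory particle lay above the autosomal share in 3 of 3 libraries. No p is given for these sums, since the members were chosen with results known.

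Taking both alleles together, the core particle made up 1298, 1187 and 1118 and the regulatory particle 1815, 1640 and 1456 of each 1000000 autosomal values in libraries 1, 2 and 3. The activators, inhibitor and chaperones stood at 675, 663 and 650. Levels were highest in library 1 and lowest in library 3 for all 3 sets, the order in which the choroid plexus markers stood as well. The part of those cells in the difference was not tested, and in bulk RNA fewer cells and less RNA per cell cannot be told apart.

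**Figure D2:**
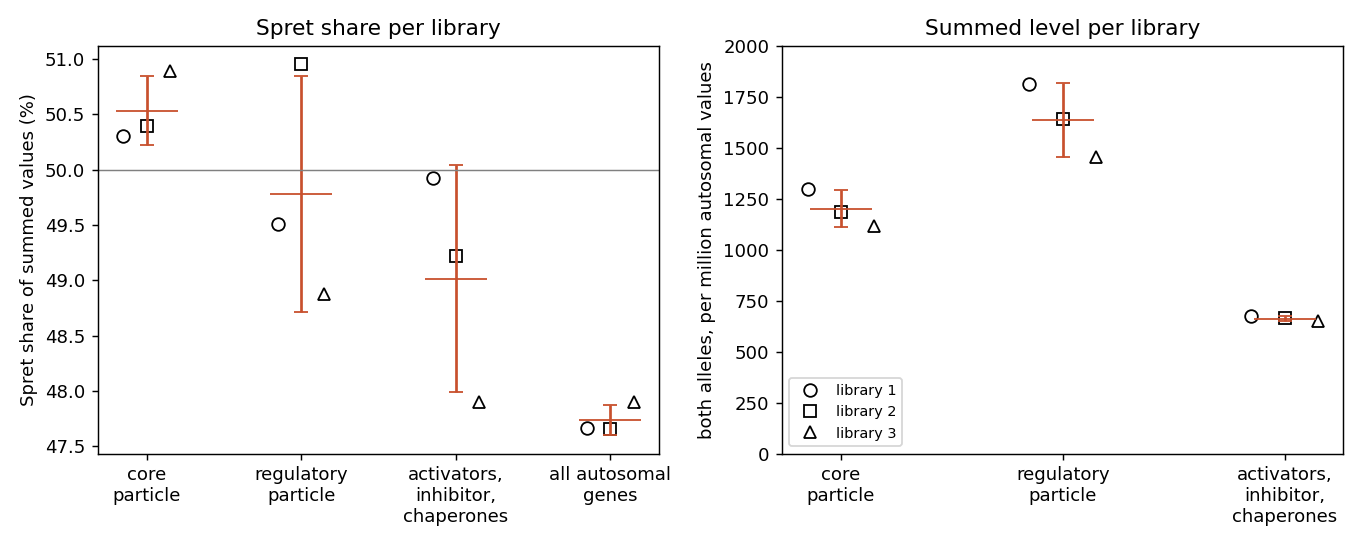
Left, the Spret share in percent of the values summed over each set in each library. Right, the level of both alleles per 1000000 autosomal values. Open symbols are libraries, and red marks with bars are the mean and SD of 3 libraries. The core share lies above 50% in each library, the autosomal share at 47.7% to 47.9%.

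Promoters are shown for the called subunits that leaned most to each allele in each particle, to show the reference sequence beside genes of opposite lean. Psmd3 leaned furthest to B6 in the regulatory particle and has no entry in the table used, so Psmd8 stands for it. Each line gives the 250 bases before the RefSeq start in the B6 reference (GRCm38.p6), on the strand of the gene. They lie at chr13:14612992-14613241 (plus strand) for Psma2, chr7:114276117-114276366 (minus) for Psma1, chr11:107479278-107479527 (plus) for Psmd12 and chr7:29180674-29180923 (minus) for Psmd8. Capitals mark matches on either strand to the CCAAT box (CCAAT), to the core of the antioxidant response element (TGACNNNGC or TGAGNNNGC), to which Nfe2l1 binds, and to a core of ETS factor sites (CCGGAAG). No capitals appear where none of these letters was found.
Psma2: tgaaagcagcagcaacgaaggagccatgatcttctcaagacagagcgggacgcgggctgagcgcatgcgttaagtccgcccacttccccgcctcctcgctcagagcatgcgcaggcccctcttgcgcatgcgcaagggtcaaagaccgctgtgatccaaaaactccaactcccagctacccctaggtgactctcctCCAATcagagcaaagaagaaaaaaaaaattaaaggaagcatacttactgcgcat
Psma1: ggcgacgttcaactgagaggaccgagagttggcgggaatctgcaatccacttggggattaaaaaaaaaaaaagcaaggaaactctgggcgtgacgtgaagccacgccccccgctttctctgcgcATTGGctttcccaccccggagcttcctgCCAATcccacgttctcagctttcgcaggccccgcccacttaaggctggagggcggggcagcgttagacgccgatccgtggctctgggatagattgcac
Psmd12: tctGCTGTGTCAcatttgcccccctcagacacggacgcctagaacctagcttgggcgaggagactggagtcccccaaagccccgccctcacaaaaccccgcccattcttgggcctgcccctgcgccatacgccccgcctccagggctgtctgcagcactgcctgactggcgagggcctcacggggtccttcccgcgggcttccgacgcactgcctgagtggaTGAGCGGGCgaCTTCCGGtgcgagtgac
Psmd8: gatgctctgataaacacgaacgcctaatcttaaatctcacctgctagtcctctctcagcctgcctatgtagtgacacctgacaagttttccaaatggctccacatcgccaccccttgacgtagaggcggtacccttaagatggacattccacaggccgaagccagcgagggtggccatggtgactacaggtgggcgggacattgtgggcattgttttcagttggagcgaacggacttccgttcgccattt

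Psma2 holds a CCAAT box 50 to 54 bases before the start, and Psma1 holds 2, at 94 to 98 and at 122 to 126 bases. In Psmd12 an ETS core lies 11 to 17 bases before the RefSeq start and the antioxidant element matches lie at 20 to 28 and 239 to 247 bases. By GENCODE, Psmd12 already starts at 107479484, within the printed window. The ETS core and the nearer antioxidant match thus lie inside the gene as GENCODE places it. The GENCODE start of Psmd8, at 29180701 on the minus strand, also falls within its window. Promoters were found for 36 members, and 1 start per gene was used for these and for the 27025 genes of the table. For Psma7, Psmb6, Psmc1, Psmc2, Psmc5, Psmc6, Psmd6, Psme4 and Psmg3, the bases after this start were not found in a transcript. The promoters of these genes are therefore less certain. CCGGAAG was found in 8 of 14 regulatory particle promoters and 0 of 12 core promoters, against 7.05% of all promoters. CCAAT was found in 4 of 14 and 7 of 12, against 34.5%. TGACNNNGC was found in 2 of 14 and 2 of 12, against 10.1%, and TGAGNNNGC in 3 of 14 and 3 of 12, against 14.2%. Among the regulatory promoters with the ETS core, those of Psmc1, Psmc2, Psmc6 and Psmd6 rest on such less certain starts. Those of Psmd2, Psmd4, Psmd11 and Psmd12 do not. All matches are a description of the reference allele, and the Spret sequence was not used here.

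In the alpha ring, 2 of 7 tested genes were called toward Spret and 1 toward B6, against 7.78% and 20.7% of tested autosomal genes. At a mean of at least 50, which all 7 reached, the autosomal shares were 10.7% and 27.0%. Psma2 (chromosome 13, 14613240 to 14674236, mm10) read 134, 147 and 169 from B6 and 245, 214 and 253 from Spret in libraries 1, 2 and 3. Every Spret value lay above every B6 value, with a ratio of 0.66 ± 0.11 (limma adjusted p = 0.000224), or 1.58-fold. Psma1 (chromosome 7, 114264606 to 114276118) went the other way, with 260, 239 and 298 from B6 and 185, 184 and 175 from Spret. Its alleles did not overlap either, and its ratio was -0.54 ± 0.10 (adjusted p = 0.000867), 1.46-fold higher from B6. Psma5 read 239, 166 and 228 from B6 and 275, 237 and 290 from Spret, higher from Spret in 3 of 3 libraries although the groups overlap, at 0.35 ± 0.09 (adjusted p = 0.011).

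The most abundant alpha gene by summed value, Psma7, read 487, 332 and 315 from B6 and 400, 299 and 310 from Spret. Its values from B6 were higher in 3 of 3 libraries by amounts smaller than the spread between libraries, and it was not called (-0.15 ± 0.08, adjusted p = 0.167). The 4 alpha genes not called, Psma3, Psma4, Psma6 and Psma7, had ratios from -0.15 to 0.15. Psma8, a germline form of an alpha subunit, was at most 5 in any column. The call of Psma5 ended without library 2 and without library 3 (limma adjusted p = 0.0749 and 0.0655).

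In the beta ring 3 of 8 tested genes were called toward Spret and 2 toward B6, against 7.78% and 20.7% of tested autosomal genes. Of the 3 catalytic subunits, Psmb5 and Psmb7 were called close to the threshold and Psmb6 was not, and the differences between these genes were not tested. Psmb5, which carries the chymotrypsin-like activity, read 27, 31 and 31 from B6 and 46, 51 and 42 from Spret. The groups were apart, at a ratio of 0.62 ± 0.22 (limma adjusted p = 0.0469), with few reads behind each value. Psmb7, which carries the trypsin-like activity, read 138, 105 and 146 from B6 and 191, 114 and 194 from Spret. It was higher from Spret in 3 of 3 libraries, least so in library 2, at 0.33 ± 0.12 (adjusted p = 0.0466). Psmb6, the caspase-like subunit, read 432, 314 and 381 from B6 and 421, 338 and 382 from Spret. Here the alleles overlap throughout, with a ratio of 0.02 and a 95% interval from -0.13 to 0.18.

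The other beta genes have no active site in the standard core, except that Psmb11 is a catalytic form made in the thymus. Psmb4 read 147, 145 and 132 from B6 and 186, 161 and 211 from Spret, without overlap, at 0.39 ± 0.12 (limma adjusted p = 0.0242). Psmb1 read 332, 318 and 348 from B6 and 229, 209 and 297 from Spret, again without overlap and in the opposite direction, at -0.45 ± 0.09 (adjusted p = 0.00169). Psmb3 read 123, 88 and 114 from B6 and 74, 80 and 81 from Spret, at -0.45 ± 0.15 (adjusted p = 0.0379), with its smallest gap in library 2. Psmb2 was higher from Spret in 3 of 3 libraries and not called (0.26 ± 0.11, adjusted p = 0.0904). Psmb11 stood between 3 and 18 in all columns.

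The 5 beta ring calls kept their direction but not the threshold when libraries were left out. Without library 1 the calls of Psmb1, Psmb3, Psmb4, Psmb5 and Psmb7 ended (limma adjusted p = 0.0506, 0.281, 0.122, 0.19 and 0.267). Without library 2 that of Psmb5 ended (0.128), and without library 3 those of Psmb3, Psmb4, Psmb5 and Psmb7 (0.167, 0.253, 0.105 and 0.227). The ratio of Psmb5 was 0.56, 0.59 and 0.72 without library 1, 2 and 3, against 0.62 with all, and that of Psmb4 was 0.41, 0.51 and 0.24, against 0.39. With centred ratios Psmb3 lost its call (limma adjusted p = 0.127) and Psmb2 gained one (0.0174).

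**Figure D3:**
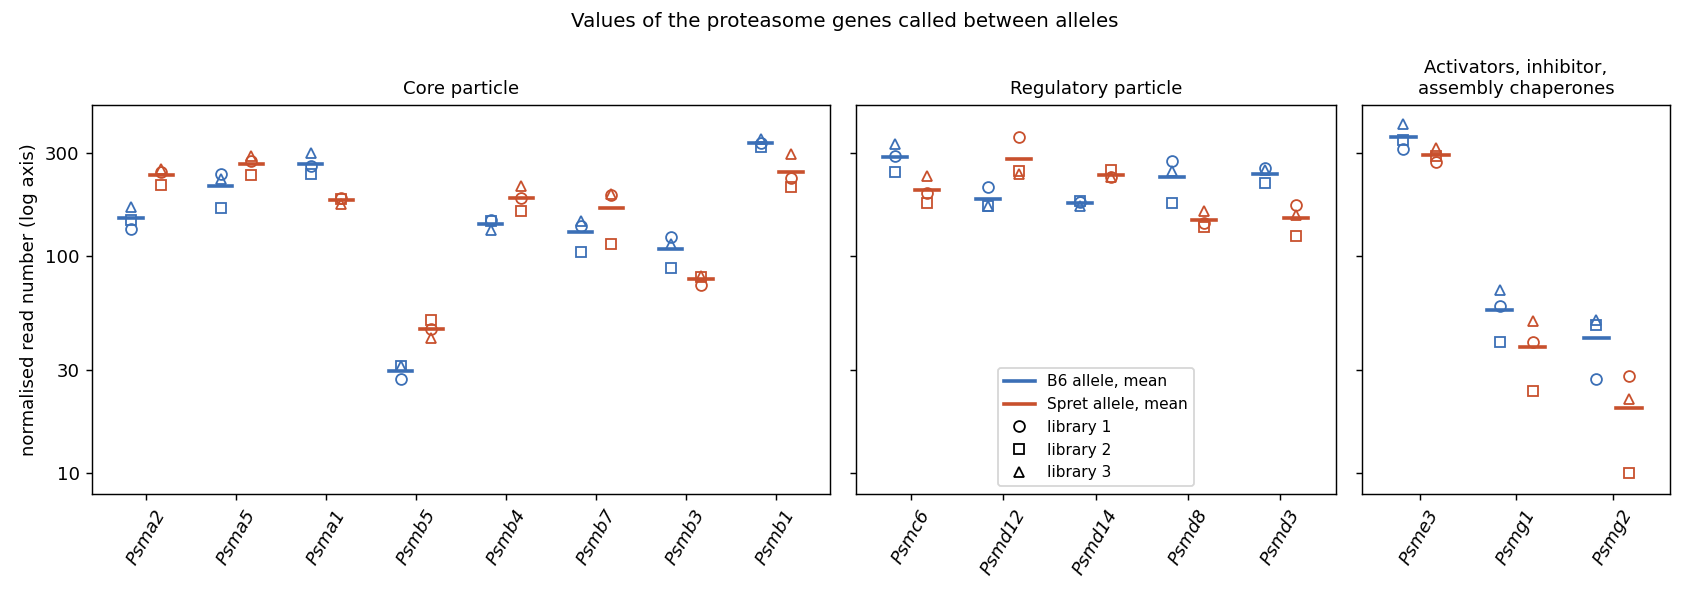
Normalised read numbers, on a log axis, of the 16 called members from the B6 allele (blue) and the Spret allele (red). Symbols are the 3 libraries and bars the mean. In 11 genes, such as Psma2, Psmd3 and Psmd14, no value of one allele reaches into the range of the other, while in Psma5, Psmb7, Psme3, Psmg1 and Psmg2 the ranges overlap.

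The base of the regulatory particle held 1 called gene among 6 ATPases and none among 3 other subunits, against 28.4% of tested autosomal genes. At a mean of at least 50, which all of these subunits reached, the autosomal share was 37.7%. Psmc6, an ATPase of the unfolding ring, read 291, 244 and 329 from B6 and 196, 176 and 234 from Spret. No Spret value reached the lowest B6 value, and the ratios of the single libraries were close, at -0.57, -0.47 and -0.49. Its ratio was -0.51 ± 0.09 (limma adjusted p = 0.000493), 1.42-fold higher from B6. The other ATPases, Psmc1, Psmc2, Psmc3, Psmc4 and Psmc5, had ratios from -0.22 to 0.11.

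Psmc1, the ATPase gene of highest summed value, read 755, 657 and 564 from B6 and 800, 692 and 521 from Spret. Its alleles moved together across libraries, with a ratio of 0.01 and a 95% interval from -0.12 to 0.15, the smallest error of the members. Psmd2, a large scaffold subunit that binds ubiquitin shuttle factors, read 394, 304 and 349 from B6 and 389, 306 and 351 from Spret. The alleles matched within 5 values in each library, and the 95% interval of the ratio ran from -0.16 to 0.16. Psmd1, the other scaffold, and Psmd4, a ubiquitin receptor, were not called, at -0.11 ± 0.10 and -0.10 ± 0.10.

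The lid was called in both directions, 2 of 8 genes toward Spret and 2 toward B6, against 7.78% and 20.7% of tested autosomal genes. At a mean of at least 50, which all 8 reached, the autosomal shares were 10.7% and 27.0%. Psmd3, a scaffold subunit of the lid (chromosome 11, 98682554 to 98695979), read 254, 217 and 249 from B6 and 173, 124 and 155 from Spret. The groups were well apart, at a ratio of -0.68 ± 0.10 (limma adjusted p = 0.000126), or 1.60-fold higher from B6. Psmd8 (chromosome 7, 29174188 to 29180701), whose yeast counterpart joins the lid last in assembly, read 275, 176 and 247 from B6 and 142, 137 and 161 from Spret. It was also without overlap, at -0.64 ± 0.12 (adjusted p = 0.000793). Psmd12 (chromosome 11, 107479484 to 107504362), a structural subunit whose human gene is mutated in a neurodevelopmental syndrome, read 208, 170 and 171 from B6 and 354, 246 and 240 from Spret. The order of the alleles was reversed against Psmd3, at 0.59 ± 0.10 (adjusted p = 0.000258), 1.51-fold higher from Spret.

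Psmd14, the deubiquitinase of the lid, read 177, 179 and 170 from B6 and 231, 251 and 231 from Spret. These groups were tight and apart, at 0.44 ± 0.09 (limma adjusted p = 0.00284), or 1.35-fold. Its inactive partner Psmd7 read 235, 166 and 220 from B6 and 303, 216 and 224 from Spret. It was higher from Spret in 3 of 3 libraries and missed the threshold (0.26 ± 0.10, adjusted p = 0.0665), as did Psmd11 (0.25 ± 0.10, adjusted p = 0.0579). Psmd6, the lid gene of highest summed value, read 310, 232 and 284 from B6 and 307, 256 and 331 from Spret, with a ratio of 0.12 ± 0.09. With centred ratios Psmd6, Psmd7 and Psmd11 were called toward Spret (adjusted p = 0.0475, 0.0102 and 0.00808). None of the 5 regulatory particle calls, of Psmc6, Psmd3, Psmd8, Psmd12 and Psmd14, ended when a single library was left out. Without the trend those of Psmc6, Psmd8 and Psmd14 ended (limma adjusted p = 0.0524, 0.0711 and 0.0695), and with no filter those of Psmd8, Psmd12 and Psmd14 (0.138, 0.0683 and 0.0616). Without the library term Psmd3 alone of the 5 kept its call.

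Of the alternative activators and the inhibitor, 1 of 5 was called, against 28.4% of tested autosomal genes. At a mean of at least 50, which all 5 reached, the autosomal share was 37.7%. Psme3, the activator of the nucleus, read 313, 343 and 408 from B6 and 272, 290 and 314 from Spret. The Spret value was the lower in each library, with slight overlap between the groups, at -0.27 ± 0.08 (limma adjusted p = 0.0183). Psme1 and Psme2, the paired subunits of the interferon-induced activator, were not called, at 0.06 ± 0.08 and -0.08 ± 0.15. Psme4, the activator of largest summed value, read 401, 325 and 413 from B6 and 470, 346 and 451 from Spret. Psme4 was higher from Spret in each library, at 0.15 ± 0.07 (adjusted p = 0.139), and with centred ratios it was called (0.27, adjusted p = 0.0112). Psmf1, which inhibits the core particle in vitro, stood at -0.31 ± 0.12 (adjusted p = 0.0649). The call of Psme3 ended without library 1, without library 3 and with centred ratios (0.0651, 0.153 and 0.183).

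The 4 chaperones that assemble the core were low, with values from 10 to 70. Of them 2 were called toward B6, against 20.7% of tested autosomal genes. Psmg1, which pairs with Psmg2 to build the alpha ring, read 59, 40 and 70 from B6 and 40, 24 and 50 from Spret. The difference had 1 direction in 3 of 3 libraries, at -0.58 ± 0.20 (limma adjusted p = 0.0423). Psmg2 read 27, 48 and 51 from B6 and 28, 10 and 22 from Spret. It was called at -1.09 ± 0.35 (adjusted p = 0.0276), while library 1 had equal alleles within 1 value and libraries 2 and 3 leaned to B6. Psmg3 and Psmg4, the other chaperone pair, were not called, at 0.56 ± 0.25 and 0.31 ± 0.27. Psmg1 lost its call without library 1, 2 or 3 (0.147, 0.101 and 0.149) and Psmg2 without library 2 or 3 (0.237 and 0.148). The ratio of Psmg2 was -1.67 without library 1, -0.56 without library 2 and -1.05 without library 3. With centred ratios Psmg1 lost its call (0.108) and Psmg3 gained one (0.0478). Psmd5 and Psmd9, chaperones of the base, were not called, at -0.29 ± 0.16 and 0.19 ± 0.13.

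The ratios of single libraries correlated over the 43 members at r = 0.471 for libraries 1 and 2, 0.664 for libraries 1 and 3 and 0.663 for libraries 2 and 3. These are descriptions across genes, and the 3 libraries share the sites at which the alleles of each gene were told apart. The sign of the ratio was the same in 3 of 3 libraries for 24 of 43 members. Neither the correlations nor this share were computed over all autosomal genes, so they are not read as traits of the members.

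Overlapping genes could share reads with some members, since the counting rule is not given. Among called members, Psmb5 holds all 109 bases of the annotated microRNA gene Mir686, which read 13, 19 and 20 from B6 and 17, 24 and 22 from Spret. Psmb7 shares 405 exonic bases with Nek6 on the opposite strand. Nek6 leaned to B6 without a call (-0.24 ± 0.11), against the Spret lean of Psmb7. Psma2 overlaps AW209491 on the same strand, with 0 shared exonic bases. AW209491 leaned to B6 without a call (-0.45 ± 0.18), against the Spret lean of Psma2. Psmd3 shares 17 exonic bases with the opposite transcript Gm12356, which read 21, 27 and 21 from B6 and 8, 4 and 4 from Spret (-1.97 ± 0.37, limma adjusted p = 0.00103), the same direction as Psmd3. Rows named as processed copies of members, 4 in all, held at most 5 in any column.

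The immunoproteasome subunits, which replace the standard catalytic subunits in immune cells, were low, with values from 4 to 27. Psmb8 read 5, 15 and 11 from B6 and 6, 13 and 4 from Spret and was too low to test. Psmb10 read 8, 18 and 16 from B6 and 20, 24 and 17 from Spret, uncalled at 0.57 ± 0.33, and Psmb9 stood at 0.43 ± 0.39. The X-linked Psmd10, a chaperone of the base, had B6 values of 82, 57 and 85, and its Spret values were 0 in each library. X-linked Uba1, the main ubiquitin-activating enzyme, read 2763, 2601 and 2992 from B6 and 0, 0 and 2 from Spret. These X-linked genes are not members and are not read as allelic differences. No reverse cross was analysed, so for each member the strain of an allele and the parent it came from cannot be told apart.

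In 6 lists of other ubiquitin and proteasome genes, 35 autosomal genes were tested, of which 4 were called toward Spret and 11 toward B6, against 7.78% and 20.7% of tested autosomal genes. At a mean of at least 50, 14 of 31 were called, against 37.7%. The median ratio was -0.16, and with centred ratios 5 were called toward Spret and 8 toward B6. Among 4 further subunits and assembly factors, Sem1, the small subunit of the lid, read 855, 720 and 593 from B6 and 1170, 1062 and 860 from Spret. It was higher from Spret by 1.43-fold in ratios that were even across libraries (0.52 ± 0.05, limma adjusted p = 3.68e-06). Adrm1, a ubiquitin receptor of the base, was also higher from Spret (0.34 ± 0.11, adjusted p = 0.0277). Pomp, the chaperone that serves beta ring assembly, read 347, 276 and 216 from B6 and 192, 157 and 171 from Spret, apart in the other direction (-0.67 ± 0.11, adjusted p = 0.000328).

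Of 7 enzymes and adaptors that bind the proteasome, Ecpas, Txnl1 and Zfand5 were higher from B6 (-0.28 ± 0.08, -0.37 ± 0.09 and -0.42 ± 0.09, limma adjusted p = 0.0136, 0.00816 and 0.00263). The deubiquitinases Usp14 and Uchl5 were at 0.00 ± 0.11 and 0.01 ± 0.17. Of 10 shuttle factors and genes of the Vcp segregase, which pulls ubiquitinated proteins from complexes, Rad23b was higher from Spret (0.20 ± 0.06, adjusted p = 0.0268). Vcp, its cofactor Nploc4 and Faf1 were higher from B6 (-0.35 ± 0.08, -0.63 ± 0.13 and -0.42 ± 0.14, adjusted p = 0.00305, 0.00212 and 0.0327). Nfe2l1, the transcription factor that raises proteasome genes when the enzyme is inhibited, read 298, 278 and 320 from B6 and 295, 251 and 322 from Spret. It was level between alleles, at -0.05 with a 95% interval from -0.23 to 0.13. In its list of 7, Keap1, the adaptor that targets Nfe2l2 for degradation, and the small Maf factor Mafk were higher from B6 (-0.71 ± 0.12 and -1.18 ± 0.27, adjusted p = 0.000375 and 0.00376).

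Of 5 autosomal genes for ubiquitin and its activating enzymes, Ubb, a polyubiquitin gene, read 1324, 1270 and 1709 from B6 and 541, 496 and 565 from Spret. It had the lowest ratio of the 35, at -1.41 ± 0.06 (limma adjusted p = 1.44e-10), or 2.66-fold higher from B6. Rps27a, a ubiquitin fused to a ribosomal protein, was higher from Spret (0.67 ± 0.08, adjusted p = 2.49e-05). The values of Ubb and Rps27a are uncertain, since the ubiquitin repeats are near copies whose reads could be split. Without library 1, Adrm1, Ecpas, Txnl1, Zfand5, Rad23b, Nploc4, Faf1 and Mafk lost their calls, at limma adjusted p-values of 0.0548 to 0.153. Leaving out library 2 ended those of Adrm1, Ecpas, Rad23b and Faf1 (0.0569 to 0.24) and lowered the ratio of Rad23b to 0.12, and leaving out library 3 those of Adrm1, Ecpas and Faf1 (0.0644 to 0.142). With centred ratios Ecpas, Txnl1 and Faf1 lost theirs (0.148, 0.0647 and 0.125).

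**Figure D4:**
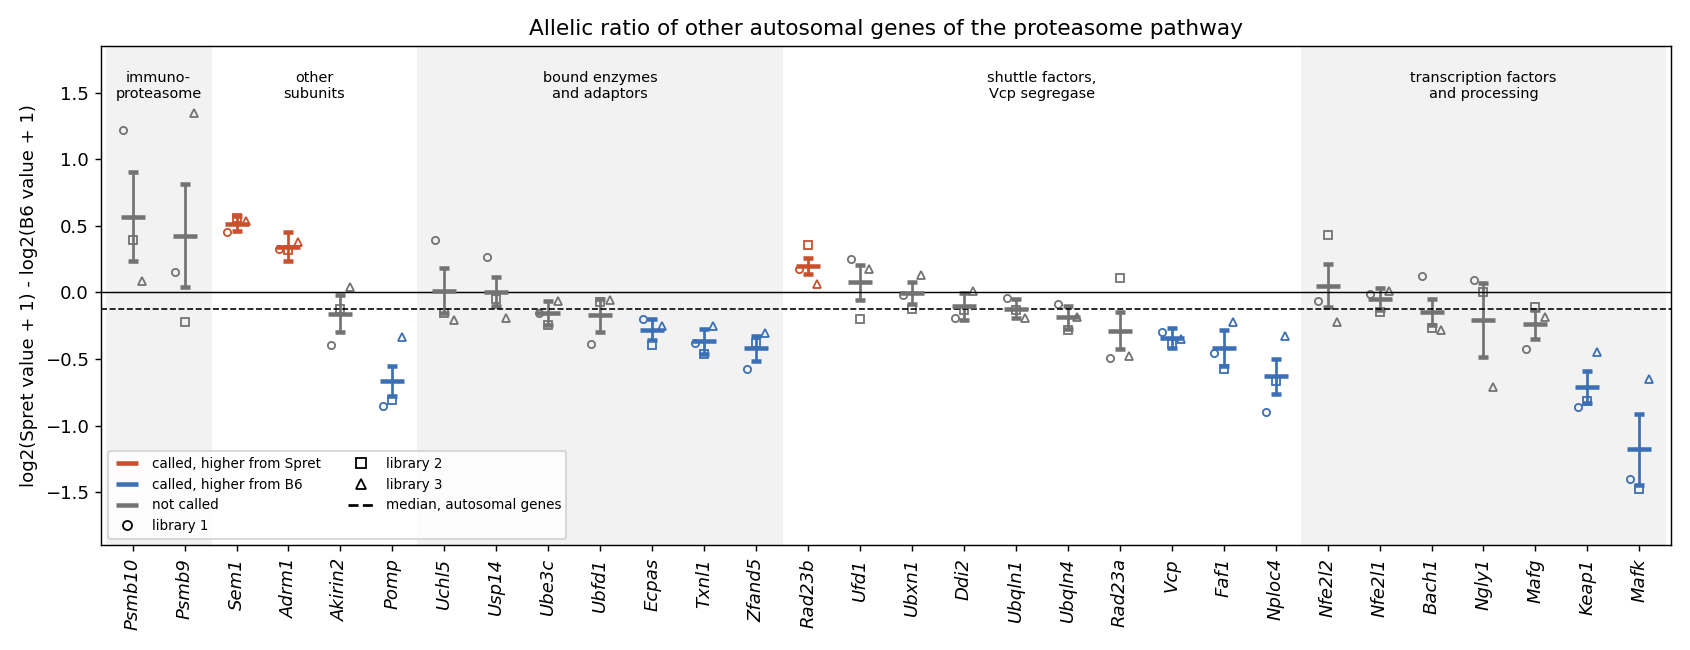
Allelic ratio on a log2 scale of the tested autosomal genes in 5 of the 6 other lists of the pathway, without the ubiquitin genes and their activating enzymes, drawn as for the members: mean and standard error from limma, single libraries as open symbols, and the autosomal median of -0.13 as a dashed line. Mafk lies lowest at -1.18 and Psmb10, not called, highest at 0.57.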

How the data were processed

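RNA was measured in 3 libraries of day 12 organoids, with 1 B6 and 1 Spret column each. The score values the authors deposited are read numbers split by allele, normalised before deposit per the name of their table, and hold whole numbers. The scaling is not described. Libraries were made after depletion of ribosomal RNA with 80M reads planned, per the labels' protocols, and reads were placed on mm10, as the submitters' processing notes list. Which aligner was used, the assignment to alleles, the counting tool and the use of strand are not given in the sources used here. A preference of the aligner for the B6 reference was not tested.

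Since reads could not be recovered in library 3, no count test was used. Genes with a mean of at least 10 over 6 columns were fitted with limma 3.58.1 in R 4.3.3 on log2(value + 1), with a trend on mean level and terms for the library and the allele. The library term pairs the alleles, since each pair shares its RNA sample. P-values are two-sided, Benjamini-Hochberg adjusted over 15985 genes, with a threshold of 0.05. Intervals are 95% and unadjusted. Positions are from GENCODE M21 (GRCm38), found for 42620 genes, and RefSeq (899 more). Promoters are from RefSeq (GRCm38.p6).

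The members and lists were chosen with earlier results of these data known. Library values are given for called members, the 3 standard catalytic subunits and the member of highest summed value per role. Other genes with values were named after those were seen. The fit was tested on simulated data, drawn without the scaling of the deposited values, and no call rests on that test. The alternatives were 2 other pseudocounts, 3 other filters on low values, centred ratios, no trend, no library term and leaving out each library.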

Additional observations from a re-analysis of the deposited data

How the results depend on the processing

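All 16 called members kept their direction under the 11 alternatives that could be run for them, and Psmd3 was the member whose call held under all 11. The standard error ran from 0.06 for Psmc1, the member of highest mean value, to 0.40 for Psmb11, the tested one of lowest, and the part of depth in which genes were called was not tested. The counts below are given as core toward Spret (5 as reported), core toward B6 (3), regulatory toward Spret (2), regulatory toward B6 (3), and activators, inhibitor and chaperones toward B6 (3).

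With no filter on low values the counts were 0, 0, 0, 2 and 0, other pathway genes had 2 toward Spret and 1 toward B6, and autosomal genes 180 and 542. Without the trend they were 2, 0, 1, 1 and 1, with 1 and 3 other pathway genes and 463 and 1312 autosomal genes. With no replicate block, which drops the pairing of the alleles, they were 1, 0, 0, 1 and 0, with 0 and 3 other pathway genes and 261 and 826 autosomal genes. With centred ratios the regulatory particle had 5 toward Spret, the activators, inhibitor and chaperones 2 toward Spret and 1 toward B6, and autosomal genes 2050 and 2091. With a mean of at least 50 the activators, inhibitor and chaperones had 1 toward B6, and with both alleles at a mean of at least 5 the core had 3 toward Spret. The causes were not tested.

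Leaving out each library gave 1 to 3 core genes toward Spret and 1 to 3 toward B6, and 2 to 3 toward Spret and 3 toward B6 in the regulatory particle. It gave 0 to 2 activators, inhibitor and chaperones toward B6, and 2 to 3 and 5 to 10 other pathway genes. Autosomal genes ranged from 573 to 1000 and from 1646 to 2628, both lowest without library 1. Without library 3 the core had 1 gene toward Spret.

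The autosomal median was -0.0041 when centred, -0.11 for genes averaging at least 50, -0.14 unfiltered and -0.12 at a pseudocount of 5, and it ranged from -0.13 to -0.12 when a library was left out. The Spret share of the core was 52.1% as the median of its members and 52.8% with equal allele sums, and that of the regulatory particle 52.0% with equal sums. Leaving out libraries gave 50.4% to 50.6% for the core and 49.2% to 50.2% for the regulatory particle.

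Signs that turned belong to genes not called. Centring gave log2 ratios of 0.0471 for Psme2, 0.1027 for Psma4, 0.0914 for Psmc4, 0.0108 for Psmd1, 0.1231 for Psmd2, 0.0262 for Psmd4, 0.0016 for Ubqln1, 0.0191 for Ddi2, 0.1188 for Ubxn1 and 0.0725 for Nfe2l1. Leaving out each library in turn gave -0.1504 to 0.0062 for Psme2, -0.0008 to 0.243 for Psma3, -0.0606 to 0.0148 for Psma4, -0.7555 to 0.037 for Psmb11, -0.0167 to 0.0549 for Psmb6, -0.0197 to 0.0791 for Psmc1 and -0.1276 to 0.3177 for Psmc5. It also gave -0.0051 to 0.0088 for Psmd2, -0.0352 to 0.75 for Psmb9, -0.124 to 0.104 for Usp14, -0.1796 to 0.1201 for Uchl5, -0.0138 to 0.2109 for Ufd1, -0.0707 to 0.0545 for Ubxn1, -0.1422 to 0.1833 for Nfe2l2 and -0.3552 to 0.0481 for Ngly1.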
